A study of Homo sapiens with 6 samples.

Results

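The glucocorticoid receptor and 7 genes that work with it or answer to it were followed in MM1.S cells, a human multiple myeloma cell line. The 8 genes were chosen by name and are NR3C1 for the receptor itself, PTGES3, FKBP4 and FKBP5 for proteins of its chaperone complex, NCOA2 for a coactivator, and TSC22D3, PER1 and SGK1 for target genes, to which FKBP5 also belongs. All 8 were among the 11048 genes listed in each library. The cells had been kept for 6 h with the solvent DMSO, with 3 µM CCF642 or with 3 µM CCF642-34, and each of these 3 treatments had 2 libraries of polyA RNA. CCF642 is an inhibitor of the disulfide isomerase PDIA1 and CCF642-34 is its analogue. The comparisons ask how the receptor genes differ between each compound and DMSO, and between the compounds at the same dose and time. No treatment with a glucocorticoid is named in the labels, and the medium held fetal bovine serum. The data describe a single cell line at a single time.

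The glucocorticoid receptor is a transcription factor that waits in the cytoplasm for cortisol or a drug such as dexamethasone. HSP90 and its partners keep it able to bind the hormone. Among them p23, encoded by PTGES3, steadies the complex, and the immunophilins FKBP52 and FKBP51, encoded by FKBP4 and FKBP5, compete for a place in it. FKBP52 favours movement of the receptor to the nucleus and FKBP51 lowers its affinity for hormone. In the nucleus the receptor binds DNA and recruits coactivators such as NCOA2, also called GRIP1. FKBP5, TSC22D3, PER1 and SGK1 are induced by the hormone in many cell types, and the FKBP51 protein then restrains the receptor. Glucocorticoids are a mainstay of myeloma treatment, and MM1.S is known as a steroid-sensitive line.

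The receptor recognises DNA as paired arms, AGAACA and its reverse complement TGTTCT with 3 bases of any kind between them, and a single arm is AGAACA. Stretches of RefSeq promoter (GRCh38.p14) before 1 start each of TSC22D3, PER1 and FKBP5 are shown, cut to bases outside annotated exons. All 3 genes lie on the minus strand and the sequences read 5′ to 3′ along it. The stretch of TSC22D3 is chrX:107717136-107717312, that of PER1 is chr17:8152436-8152654 and that of FKBP5 is chr6:35688943-35689165. Capitals mark the E-box CACGTG, a motif bound among others by the circadian factors CLOCK and BMAL1.
TSC22D3: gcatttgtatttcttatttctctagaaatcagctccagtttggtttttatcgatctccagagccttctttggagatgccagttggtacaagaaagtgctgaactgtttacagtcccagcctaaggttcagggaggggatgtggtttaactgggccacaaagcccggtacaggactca
PER1: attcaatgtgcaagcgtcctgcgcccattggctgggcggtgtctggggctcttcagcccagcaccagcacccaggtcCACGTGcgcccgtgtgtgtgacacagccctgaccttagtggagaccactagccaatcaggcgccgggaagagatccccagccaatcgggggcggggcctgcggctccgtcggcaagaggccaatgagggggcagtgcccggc
FKBP5: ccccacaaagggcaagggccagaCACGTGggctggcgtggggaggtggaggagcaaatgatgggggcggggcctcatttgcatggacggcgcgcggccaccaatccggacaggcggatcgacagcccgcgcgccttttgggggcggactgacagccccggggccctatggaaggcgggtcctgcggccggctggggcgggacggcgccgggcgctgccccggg

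RefSeq gave 18 windows of 250 bases before a start for 6 of the 8 genes, 7 for NR3C1, 4 for TSC22D3, 3 for SGK1, 2 for FKBP5 and 1 each for PTGES3 and PER1. With both strands searched, the full receptor motif was in 0 of the 18 and in 0.00285% of all 35116 windows of this length, and the single arm AGAACA was in 0 of the 18 and in 12.4% of all. CACGTG was in 2 of the 18, the windows of FKBP5 and PER1 printed here, and in 6.34% of all. The cAMP response motif TGACGTCA was in 0 of the 18 and in 1.65% of all. Its shorter form TGACG, which the longer form contains, was in 5 of the 18, from NR3C1, PTGES3 and TSC22D3, and in 21.2% of all. These matches describe letters in a short window, and binding was not measured. The full receptor motif stood in only 1 of the 35116 windows, so its absence from the 18 says nothing about these genes. Sequence beyond the 250 bases was not searched.

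Reads were worked out from the deposited CPM, each library's values being whole multiples of 1 step, taken as 1 read. By this the libraries held between 20567313 and 28459677 reads, and the 8 genes had from 875 to 47925 reads each per library. The upper ends come from the CCF642-34 libraries, where no listed value was a single read, so that their step is less directly shown. Of 10 plasma cell and myeloma markers 9 were listed, IGLC2 not, and their summed level was 9322 to 9384 CPM (reads of a gene scaled to the library total) with DMSO, 6585 to 6628 with CCF642 and 7382 to 7416 with CCF642-34. The markers did not move together, since JCHAIN, the immunoglobulin joining chain, had a mean of 4319 CPM with DMSO, 1833 with CCF642 and 2348 with CCF642-34, whereas the transcription factor IRF4 had 669.5, 1137 and 1356 CPM. Other cell types left few markers, with 0 of 4 listed for monocytes, 1 of 4 for T cells (CD3E, 2.09 to 3.19 CPM over all libraries), 1 of 4 for epithelial cells (EPCAM, 0.981 to 1.62 CPM) and 2 of 4 for stromal cells (COL1A1 and PDGFRB, summed 2.74 to 2.85 CPM with DMSO, 10.6 to 11.7 with CCF642 and 4.01 to 4.68 with CCF642-34). Of the latter pair COL1A1 rose (log2 2.33 with CCF642 and 0.90 with CCF642-34), and PDGFRB was not called (log2 0.015 and -0.13). Each listed gene had at least 1.505 CPM in its highest library, and COL1A1 and EPCAM reached this only in treated cells. The direction of the COL1A1 change was thus set by its listing. The part of these markers in the results was not tested. In such bulk RNA, fewer cells of a type and less RNA per cell cannot be told apart.

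With either compound the receptor, TSC22D3, PER1 and SGK1 were higher than with DMSO, FKBP5 was lower, and TSC22D3 changed most among the 8 genes. With CCF642, 6 of the 8 genes were higher than with DMSO at a limma adjusted p under 0.05, 1 was lower and 1 was not called, where 63.1% of all listed genes were called, 31.8% higher and 31.3% lower. With CCF642-34 the counts were 5 higher, 2 lower and 1 not called, where 57.6% of all genes were called, 29.7% higher and 27.9% lower. With so many genes called, these counts are no result about the 8 genes. A change of at least 2-fold with an unadjusted p under 0.05 was met by 4 of the 8 with CCF642, all higher, against 6.49% of all genes (4.5% higher), and by 1 of the 8 with CCF642-34, also higher, against 3.87% (2.59% higher). The median log2 fold change of the 8 was 0.70 with CCF642 and 0.27 with CCF642-34, beside -0.0066 and 0.0067 over all genes. Fold changes are differences of log2(TMM-scaled CPM + 1). TMM scaling gives each library 1 factor and assumes that most genes do not change. Levels are the deposited CPM, which lack that scaling, so that a small difference in CPM and its fold change can part. In deposited CPM both CCF642 libraries lay above both DMSO libraries for 29.2% of all genes and below for 52.5%. With CCF642-34 these shares were 31.5% and 47.8%. Both CCF642-34 libraries lay above both CCF642 libraries for 39.7% and below for 25.4%. Separate libraries were thus common among all genes.

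**Figure D1:**
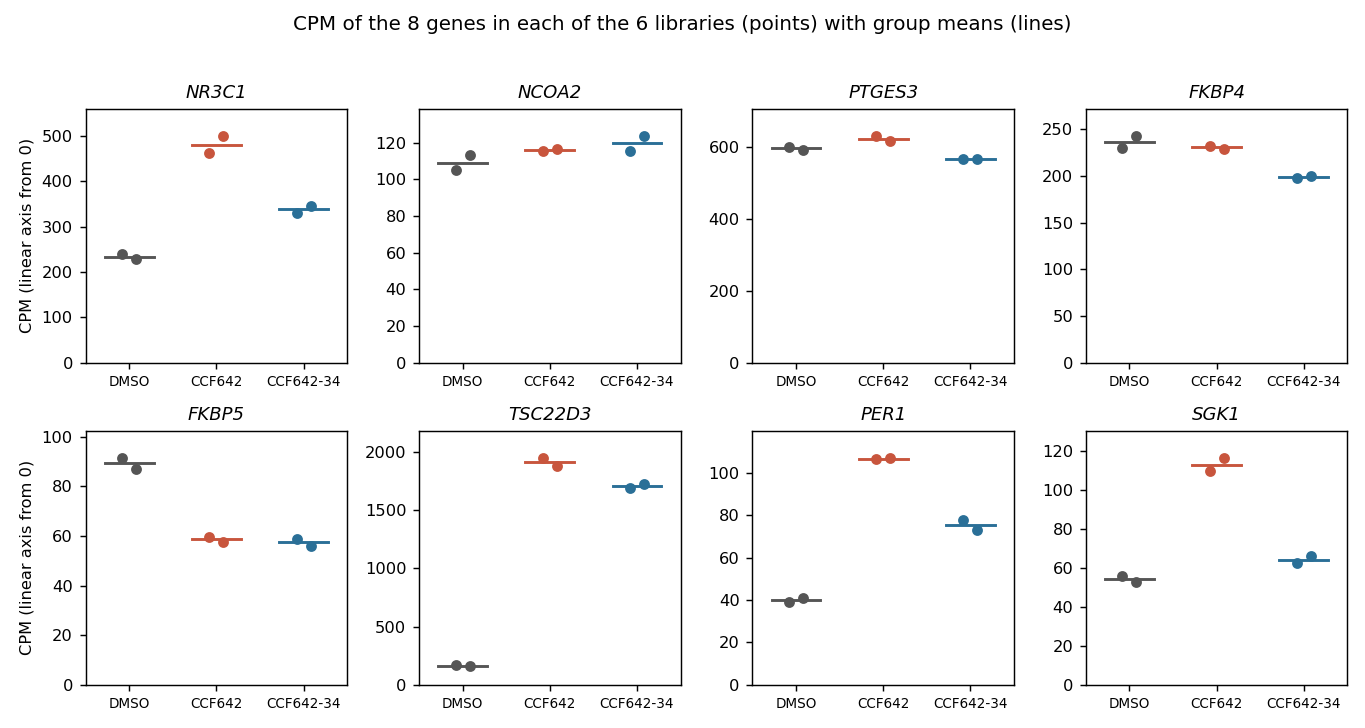
Deposited CPM of the 8 genes in each of the 6 libraries, 1 panel per gene, with 2 points per treatment and a bar at their mean; each vertical axis has its own range. TSC22D3 stands near 165 CPM with DMSO and at or above 1684 CPM with either compound, and FKBP5 is the gene whose 4 treated libraries all lie well below DMSO.

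NR3C1, on chromosome 5 (GRCh38, 143277931 to 143435512, minus strand), encodes the receptor. Its level was 239 and 228 CPM with DMSO, 462 and 500.2 CPM with CCF642, and 331 and 347 CPM with CCF642-34. The 3 treatments were separate, with DMSO lowest and CCF642 highest. The means were 234 ± 7.71, 481 ± 26.8 and 339 ± 10.9 CPM (SD, n = 2 each). The receptor mRNA was 2.25-fold higher with CCF642 (log2 1.17, SE 0.043, limma adjusted p = 4.07e-28) and 1.54-fold higher with CCF642-34 (log2 0.62, SE 0.043, adjusted p = 2.68e-17).

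NCOA2, on chromosome 8 (70109762 to 70403805, minus strand), encodes the coactivator GRIP1, which bridges the bound receptor to histone-modifying enzymes. Its level was 105 and 113 CPM with DMSO, 115 and 117 CPM with CCF642, and 116 and 124 CPM with CCF642-34. All 4 treated libraries lay above DMSO, 3 of them by less than the gap between the DMSO libraries. The fitted log2 change was 0.22 (95% interval 0.12 to 0.33, adjusted p = 0.000324) with CCF642 and 0.22 (0.11 to 0.33, adjusted p = 0.000404) with CCF642-34. With scaling to library size alone, which places the median of all genes at -0.13 with CCF642, the CCF642 change was 0.089 (adjusted p = 0.137).

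Of the chaperone complex, PTGES3 and FKBP4 had smaller fold changes from DMSO than FKBP5 with each compound. PTGES3, on chromosome 12 (56663341 to 56688408, minus strand), encodes p23. It had 600.4 and 592 CPM with DMSO, 631 and 616 CPM with CCF642, and 565 and 566 CPM with CCF642-34. The treatments did not overlap, with CCF642-34 lowest in deposited CPM. Its log2 change was 0.20 (95% interval 0.12 to 0.27, adjusted p = 8.24e-06) with CCF642, and 0.065 (adjusted p = 0.115) with library size alone. With CCF642-34 the change was not called, at 0.015 (interval -0.060 to 0.089, adjusted p = 0.759), and it was -0.075 (adjusted p = 0.0722) with library size alone.

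FKBP4, on chromosome 12 (2794953 to 2805423, plus strand), encodes FKBP52. It had 230.4 and 243 CPM with DMSO, 232 and 229 CPM with CCF642, and 198 and 199.8 CPM with CCF642-34. The CCF642 libraries overlapped DMSO, and both CCF642-34 libraries lay below all others. With CCF642 the log2 change of 0.098 (interval 0.0088 to 0.19) missed the threshold at an adjusted p = 0.0507. With CCF642-34 FKBP4 was lower, by a log2 change of -0.16 (interval -0.25 to -0.070, adjusted p = 0.00188). Without DMSO replicate 2 this was -0.12 (adjusted p = 0.0979). PTGES3 and FKBP4 each have 5 annotated pseudogenes by name, of which 0 were listed, so some of their reads may be assigned uncertainly. Genes on the opposite strand share from 2.24% to 5.5% of the exon bases of FKBP4.

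FKBP5, on chromosome 6 (35573585 to 35728583, minus strand), encodes FKBP51 and is both a part of the complex and a classical target of the receptor. It had 91.3 and 87.0 CPM with DMSO, 59.4 and 57.7 CPM with CCF642, and 58.9 and 56.0 CPM with CCF642-34. All 4 treated libraries lay below both DMSO libraries, and the compounds overlapped each other. The fitted fold change was 0.724 with CCF642 (log2 -0.47, SE 0.062, adjusted p = 6.53e-09) and 0.689 with CCF642-34 (log2 -0.54, SE 0.062, adjusted p = 2.32e-10). In deposited CPM the means were 0.657 and 0.644 of DMSO. FKBP5 was the one gene of the 8 called lower with both compounds, and the one target gene called lower.

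TSC22D3, on chromosome X (107713221 to 107777342, minus strand), encodes GILZ, a leucine zipper protein that mediates anti-inflammatory effects of glucocorticoids. Its level was 167 and 162 CPM with DMSO, 1944 and 1874 CPM with CCF642, and 1684 and 1723 CPM with CCF642-34. No treated library came near DMSO, and both CCF642-34 libraries lay below both CCF642 libraries. The increase was 12.6-fold with CCF642 (log2 3.66, SE 0.036, adjusted p = 7.47e-52) and 10.9-fold with CCF642-34 (log2 3.45, SE 0.036, adjusted p = 7.25e-51). By size it ranked 10 among the increases with CCF642 and 8 with CCF642-34, out of 11048 genes. On the opposite strand NCBP2L, which was not listed, shares 1.49% of its exon bases, and whether reads were counted by strand is not given in the sources used here.

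PER1, on chromosome 17 (8140472 to 8156506, minus strand), is a repressor of the circadian clock that glucocorticoids induce quickly. It had 39.1 and 40.9 CPM with DMSO, 107 CPM in each library with CCF642, and 77.8 and 73.2 CPM with CCF642-34. The treatments were separate, in the order DMSO, CCF642-34, CCF642. On the same strand MIR6883 shares 1.11% of its exon bases. PER1 was 2.88-fold higher with CCF642 (log2 1.53, SE 0.061, adjusted p = 1.38e-26) and 1.98-fold higher with CCF642-34 (log2 0.99, SE 0.061, adjusted p = 5.22e-19). The latter lies so close to 2-fold that several alternatives put it on the other side, with a log2 change of 1.02 without DMSO replicate 2 and 1.04 without CCF642-34 replicate 2.

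SGK1, on chromosome 6 (134169246 to 134318112, minus strand), encodes a kinase that controls ion channels and cell survival. It had 55.9 and 52.6 CPM with DMSO, 109 and 116 CPM with CCF642, and 62.5 and 65.8 CPM with CCF642-34. The CCF642 libraries stood well above the rest, and the CCF642-34 libraries only slightly above DMSO. The increase was 2.26-fold with CCF642 (log2 1.17, SE 0.061, adjusted p = 2.87e-22) and 1.25-fold with CCF642-34 (log2 0.33, SE 0.061, adjusted p = 9.13e-06).

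**Figure D2:**
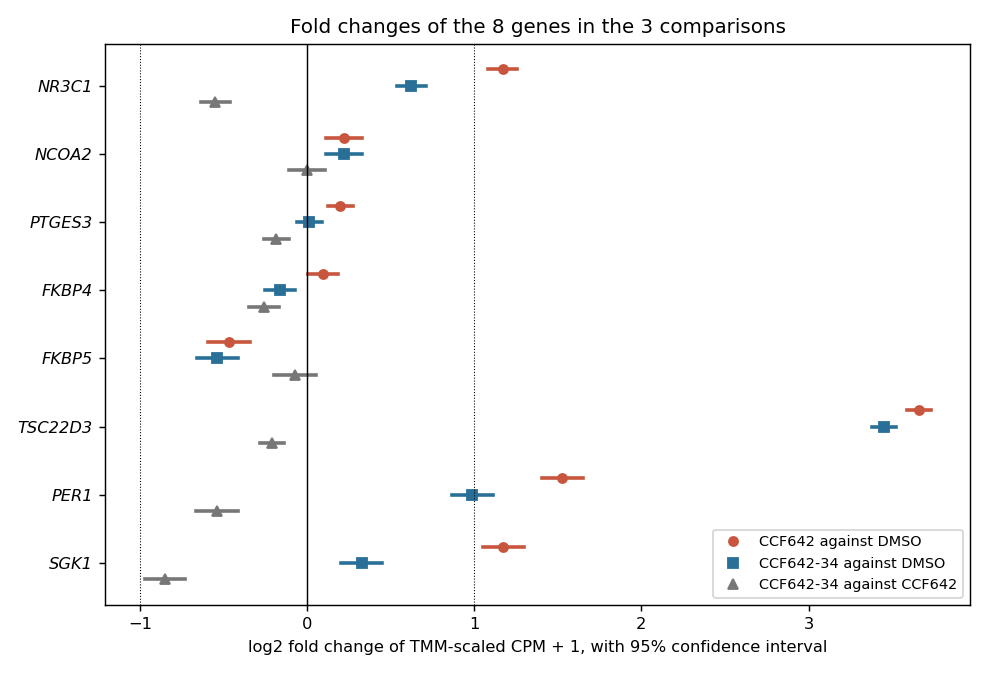
Fitted log2 fold change of each of the 8 genes for the 3 comparisons, with 95% intervals from limma; the solid vertical line marks no change and the dotted lines mark 2-fold. TSC22D3 lies above 3 with both compounds, FKBP5 lies near -0.5 with both, and in the direct comparison SGK1, NR3C1 and PER1 lie farthest below 0.

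The compounds were compared directly as 1 pair at 3 µM and 6 h. Of the 8 genes, 6 were lower with CCF642-34 than with CCF642, 0 were higher and 2 were not called, where 33.4% of all listed genes were called, 15.9% higher and 17.4% lower. None of the 8 met the 2-fold criterion, which 0.308% of all genes met. SGK1 differed most, with a log2 difference of -0.85 (95% interval -0.97 to -0.73, adjusted p = 5.31e-16), which ranked 68 among the decreases of all genes. NR3C1 followed with -0.55 (interval -0.63 to -0.46, adjusted p = 1.43e-14), and PER1 with -0.54 (interval -0.66 to -0.42, adjusted p = 1.00e-09). FKBP4 differed by -0.26 (interval -0.35 to -0.17), TSC22D3 by -0.21 (interval -0.28 to -0.14) and PTGES3 by -0.18 (interval -0.26 to -0.11). FKBP5 was not called, at -0.071 (interval -0.19 to 0.053, adjusted p = 0.402), and NCOA2 was not called either, at -0.0014 (interval -0.11 to 0.11, adjusted p = 0.987). For these 2 genes the intervals leave room for small differences either way. The median of the 8 was -0.23, beside 0.0093 over all genes. Both comparisons with DMSO used the same DMSO libraries and are therefore not independent.

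To order the genes by level, CPM were divided by the length of all annotated exons of a gene joined together (GENCODE release 29), in kb. With DMSO the order was PTGES3 at 175 CPM per kb, FKBP4 at 45.7, TSC22D3 at 34.6, NR3C1 at 25.5, NCOA2 at 10.9, FKBP5 at 8.39, PER1 at 5.71 and SGK1 at 5.43. Of the neighbours in this order PER1 and SGK1 overlapped, with 5.58 and 5.84 against 5.59 and 5.27 CPM per kb in the single libraries. With CCF642 TSC22D3 was the highest of the 8, at 400.5 CPM per kb, followed by PTGES3 at 183, NR3C1 at 52.5, FKBP4 at 44.5 and PER1 at 15.2, and FKBP5 was the lowest at 5.51. NCOA2, with 11.5 and 11.6 CPM per kb, and SGK1, with a mean of 11.3 ± 0.470 (SD, n = 2), overlapped there. With CCF642-34 TSC22D3 again led at 357 CPM per kb, before PTGES3 at 166, and FKBP4 at 38.4 stood just above NR3C1 at 36.9. NCOA2 at 11.9, PER1 at 10.8, SGK1 at 6.42 and FKBP5 at 5.40 followed, and no neighbours in this order overlapped between libraries. Annotated exons include those the cells may not use, so these levels are approximate.

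**Figure D3:**
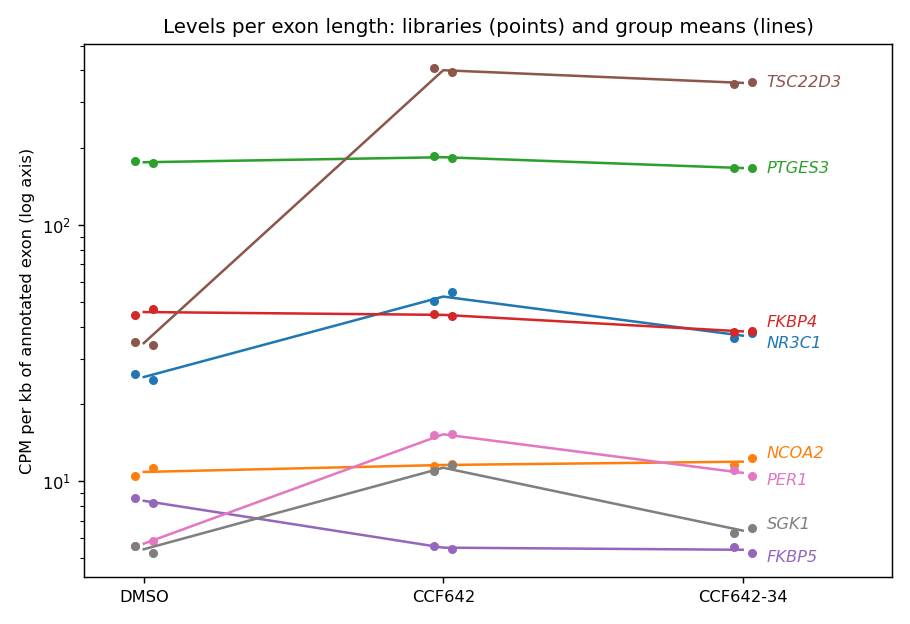
Level per length of the 8 genes (CPM per kb of joined exons, log axis) for the 3 treatments, with a point per library and lines that join the means. TSC22D3 lies below PTGES3 and FKBP4 with DMSO and above both with either compound, whereas PTGES3 stays between 166 and 186 CPM per kb.

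Genes with a like pattern were found by the Euclidean distance between the 6 library values on the log2 scale, each centred on its DMSO mean, among 9382 genes with a mean of at least 5 CPM. Nearest to NR3C1 were RGS1, a regulator of G protein signalling (distance 0.102), RAB9A (0.108) and the chemokine receptor CXCR4 (0.12). Nearest to PER1 were OTUD1 (0.0768), the phosphatase DUSP5 (0.106) and the transcription factor KLF4 (0.113). SUSD4 (0.145), the zinc transporter SLC30A1 (0.151) and the heat shock protein HSPH1 (0.161) lay nearest to SGK1. Distances from TSC22D3 were longer, and the least distant genes were DDIT3, which encodes CHOP (0.395), CEBPB (0.442) and the cystine transporter SLC7A11 (0.688). The log2 change of DDIT3 was 3.42 with CCF642 and 3.32 with CCF642-34. Nearest to FKBP5 were PPP2R1B (0.0773), RASSF6 (0.0817) and ISOC1 (0.0863). The genes nearest to NCOA2 were GDI2, PTPRG and TMEM127, those nearest to PTGES3 were EHMT1, THRAP3 and BRD1, and those nearest to FKBP4 were YOD1 and KANSL1L, all within a distance of 0.07.

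The rest of the pathway was taken from lists written from general knowledge, but with earlier results of these data known. Their counts are given beside the shares of all 11048 genes called and are not an independent test. Of 17 genes of the receptor's chaperone cycle, the HSP90 and HSP70 machines that ready it for hormone, 16 were listed. With CCF642, 13 were called higher and 2 lower, with a median log2 change of 0.45, and with CCF642-34, 11 higher and 2 lower, with a median of 0.25. Of all genes, 31.8% were called higher and 31.3% lower with CCF642, and 29.7% and 27.9% with CCF642-34. HSPA1B, an inducible HSP70, had 141 and 139.9 CPM with DMSO, 285 and 288.5 CPM with CCF642, and 134 and 126 CPM with CCF642-34. Its log2 change was 1.16 with CCF642 and -0.022 with CCF642-34, the latter not called, and its reads may be shared with the near-identical HSPA1A, which was not listed. DNAJB1, an HSP40, rose by 1.02 and 0.13, DNAJA1 by 0.89 and 0.54, and DNAJA2 by 0.65 and 0.62. The exceptions were BAG1, a nucleotide exchange factor for HSP70, with -0.52 and -0.33, and the phosphatase PPP5C, which binds HSP90 as the immunophilins do, with -0.38 and -0.31. Between the compounds 11 of the 16 were lower with CCF642-34 and 1 was higher, where 17.4% and 15.9% of all genes were.

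Of 13 other FKBP immunophilins, 8 were listed. CCF642 gave 1 call upward and 3 downward, and CCF642-34 gave 3 upward and 1 downward. Of all genes 63.1% and 57.6% were called, so that these counts are no result about the family. Scaled by library size alone, CCF642 gave 1 upward and 5 downward, and CCF642-34 gave 1 upward and 2 downward. FKBP14, a resident of the endoplasmic reticulum, rose from 24.6 and 25.8 CPM to 51.9 and 45.7 CPM with CCF642 and to 47.1 and 43.5 CPM with CCF642-34 (log2 1.05 and 0.91). FKBP1A, the target of tacrolimus, fell with both (log2 -0.51 and -0.36). FKBP9 fell with CCF642 (log2 -0.68), at levels of 6.13 and 4.34 CPM with DMSO, and FKBP2 rose with CCF642-34 (log2 0.23).

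Among 14 listed coregulators of 15, CCF642 gave 6 higher and 3 lower, and CCF642-34 gave 1 higher and 5 lower. With CCF642 this is near the 63.1% of all genes called (31.8% higher and 31.3% lower). With CCF642-34, 57.6% of all genes were called (29.7% higher and 27.9% lower). The median log2 changes were 0.011 and 0.017, and with library size alone the CCF642 counts turned to 5 higher and 7 lower. NRIP1, a corepressor, rose with CCF642 (log2 0.42). HDAC2, a histone deacetylase, fell by 0.70 and 0.45 on the log2 scale, and MED14, a Mediator subunit that contacts the receptor, fell by 0.26 and 0.42.

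Other genes known to be induced by glucocorticoids were mostly higher. Of 27, 22 were listed. With CCF642, 16 were called higher and 2 lower, 12 of the former by at least 2-fold, with a median log2 change of 1.13. With CCF642-34, 14 were called higher and 3 lower, 6 of the former by at least 2-fold, with a median of 0.58. Each listed gene had at least 1.505 CPM in its highest library. ERRFI1 and BCL6, both among the 12 and ERRFI1 also among the 6, reached this only with the compounds. The direction of their change was thus set by their listing. MT2A, not called with either compound, also reached it only in treated cells. Of all genes, 31.8% were called higher and 4.5% were higher by at least 2-fold with CCF642, and 29.7% and 2.59% with CCF642-34. CEBPB, a bZIP transcription factor, had 6.44 and 5.56 CPM with DMSO, 73.3 and 67.8 CPM with CCF642, and 63.6 and 58.1 CPM with CCF642-34 (log2 3.48 and 3.22). RGS2, a brake on G protein signalling, rose from 89.3 and 93.9 CPM to 334 and 339.8 CPM with CCF642 and to 181 and 185 CPM with CCF642-34. DDIT4, an inhibitor of mTORC1, rose by 1.76 with CCF642 and 1.92 with CCF642-34 on the log2 scale. GLUL, glutamine synthetase, fell by 0.53 and 0.39 on the log2 scale. TXNIP fell by 0.23 with CCF642. TNFAIP3, a feedback inhibitor of NF-kB, fell by 0.62 with CCF642-34, and its change of 0.053 with CCF642 was not called. Between the compounds 13 of the 22 were lower with CCF642-34 and 4 higher, with a median of -0.45, where 17.4% and 15.9% of all genes were. Chosen after their values were seen, KLF9, a rapid target of the receptor, had a log2 change of 1.96 with CCF642 and 1.69 with CCF642-34, and BCL2L11, which encodes the death-promoting BIM, had 0.88 and 0.23.

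Of 11 genes known to be repressed by glucocorticoids, only 5 were listed. With each compound 4 were called higher and 1 lower, with medians of 1.25 and 1.20, where 31.8% of all genes with CCF642 and 29.7% with CCF642-34 were called higher. PTGS2, the inducible cyclooxygenase, had 0.609 and 0.607 CPM with DMSO, 5.06 and 5.18 CPM with CCF642, and 2.46 and 2.81 CPM with CCF642-34. Each listed gene had at least 1.505 CPM in its highest library, and PTGS2 reached this only with the compounds. The direction of its change was thus set by its listing, and PTGS2 is part of the counts and medians given here. Genes that stayed lower could not be counted. The chemokine CCL3 rose by 2.14 and 1.20 on the log2 scale, and CCL4 by 1.25 and 1.30, both of which have near-identical copies that could share reads. MYC was the gene that fell, by 2.04 with CCF642 and 1.25 with CCF642-34.

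**Figure D4:**
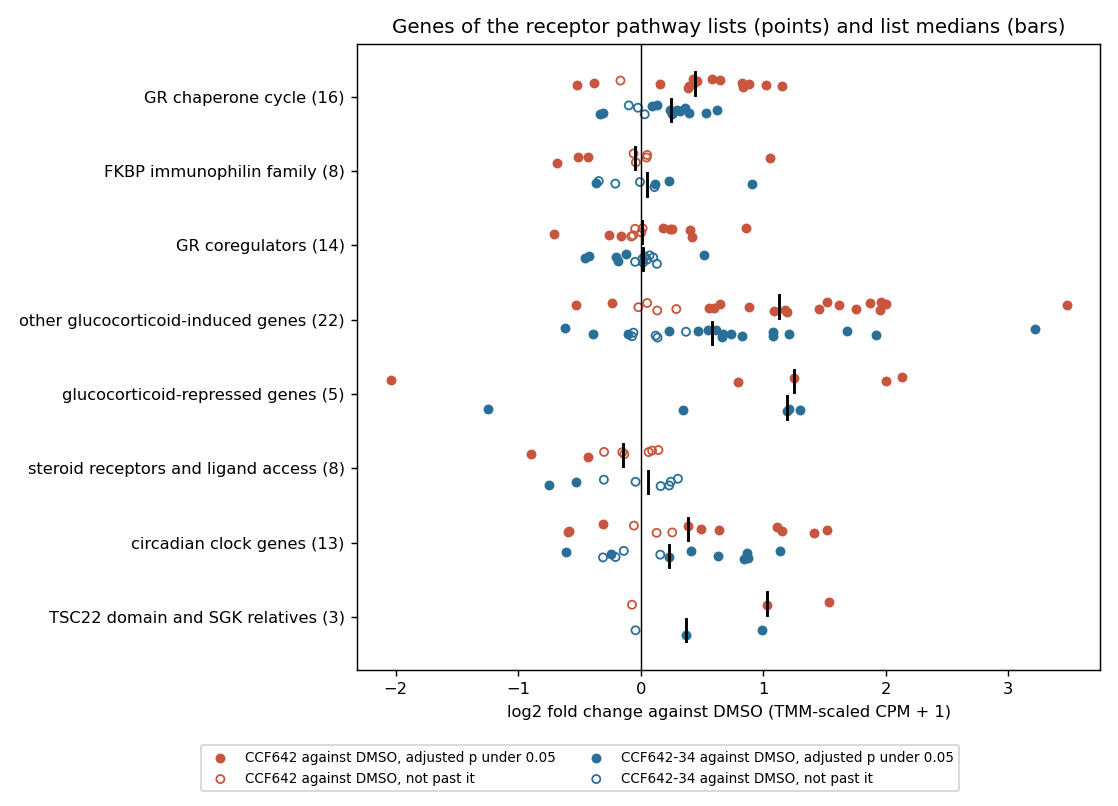
Log2 fold change of every listed gene of the 8 pathway lists (number listed in brackets) for each compound against DMSO, with filled points at an adjusted p under 0.05, open points for the rest and a bar at the median of a list. Both the induced and the repressed lists have medians above 0 with each compound, and the coregulators centre near 0. Each listed gene reached 1.505 CPM in some library, so a gene below this with DMSO is shown only through treated libraries.

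Of 9 other steroid receptors and genes of hormone access, 8 were listed. With each compound 0 were called higher and 2 lower, where 31.3% of all genes with CCF642 and 27.9% with CCF642-34 were called lower. H6PD, which supplies the enzyme that reactivates cortisol with NADPH, fell with both (log2 -0.90 and -0.53). HSD11B1, which encodes that enzyme, was not listed. NR3C2, the mineralocorticoid receptor, was low, with 6.44 and 4.11 CPM with DMSO, and fell with CCF642 (log2 -0.43). ESR2, an oestrogen receptor, fell with CCF642-34 (log2 -0.75).

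Of 15 other circadian clock genes 13 were listed. With CCF642, 7 were called higher and 3 lower, where 31.8% of all genes were called higher and 31.3% lower. With CCF642-34, 7 were called higher and 2 lower, where 29.7% of all genes were called higher and 27.9% lower. PER2, a paralogue of PER1, moved the opposite way, from 32.1 and 31.3 CPM with DMSO to 18.5 and 19.4 CPM with CCF642 and 18.7 and 19.8 CPM with CCF642-34 (log2 -0.59 and -0.61). CLOCK fell by 0.31 and 0.25 on the log2 scale, and TEF by 0.59 with CCF642. BHLHE40, a repressor of clock genes, rose by 1.42 and 1.14, RORA by 1.52 and 0.87, and NR1D2, which encodes REV-ERB beta, by 1.16 and 0.88. Of the 5 relatives of TSC22D3 and SGK1, 3 were listed. TSC22D1 rose by 1.54 and 0.99 and TSC22D2 by 1.03 and 0.37, each under the change of TSC22D3, and TSC22D4 was not called with either compound.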

How the data were processed

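RNA sequencing of MM1.S cells was analysed in 6 libraries, 2 per treatment. The authors deposited CPM, the reads of a gene relative to its library's total, for 11048 genes; this unit was read from the values, 100% of which were whole multiples of the share of 1 read within 0.05 of a read. The listed genes hold 99.9% of the CPM of every library. Each had at least 1.505 CPM in its highest library, so a gene below this with DMSO is listed only through treated libraries. The submitters' processing notes name STAR, edgeR 3.24.3, limma 3.38.3 and hg19; how they were used and the counting by strand are not given in the sources used here. Coordinates are from GENCODE release 29 and RefSeq (GRCh38) and served only for annotation.

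limma 3.58.1 (R 4.3.3, eBayes with trend) was fitted to log2(CPM + 1) after TMM scaling (edgeR 4.0.16) with the 3 treatments together and no replicate block. Tests were two-sided, and p-values were adjusted by Benjamini-Hochberg over all 11048 genes. A pseudocount of 1 understates changes of low genes. The fit was tested on simulated data. The labels do not say whether replicates came from separate cultures, so that p-values measure only the spread between these libraries. Replicates were not copies of each other, since their reads differed by 2.30 to 4.64 times the counting variance per gene. This spread cannot show whether they came from separate cultures. Recovered reads served the TMM factors of the main fit, the comparisons of replicates and the alternatives (edgeR, DESeq2 1.42.0, voom). The main fit itself used the deposited CPM.

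The genes and lists were chosen with earlier results of these data known. The 8 receptor genes are all named; of each list, the 2 largest increases and 2 largest decreases at an adjusted p under 0.05 with each compound; and for each receptor gene, the 3 genes of most like pattern. Some genes that this rule names are not reported here. Protein sequences were not used here.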

Additional observations from a re-analysis of the deposited data

How the results depend on the processing

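Of 408 results of the 8 genes under 17 alternatives (other scalings, pseudocounts, filters, tests, a replicate block and leaving out each library), 392 kept their direction and their side of the threshold. Those that reversed were small and not called: with library size alone FKBP4 with CCF642 was -0.036, PTGES3 with CCF642-34 was -0.075 and NCOA2 between the compounds was 0.043. NCOA2 between the compounds also ranged from -0.044 to 0.044 on leaving out single libraries, at 0.011 without CCF642 replicate 2 and 0.044 without CCF642-34 replicate 1. With library size alone the median of all genes was -0.13 with CCF642 and -0.078 with CCF642-34. FKBP4 with CCF642 passed in 4 settings, with adjusted p from 0.0471 to 0.0489. With a gene-wise linear model, which shares no variance between genes, 4 calls were lost, NCOA2 with CCF642 (adjusted p = 0.0667) and with CCF642-34 (0.075) and, between the compounds, FKBP4 and TSC22D3 (both 0.0541).

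The number of genes at 2-fold with CCF642-34 was 1, and it was 2, with PER1 added, with a pseudocount of 0.1, edgeR quasi-likelihood, DESeq2 and limma-voom on recovered reads; leaving out single libraries gave 1 to 2.

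Replicate numbers are shared by the treatments, but the deviations of same-numbered libraries correlated by only -0.027, -0.058 and 0.070 over 10311 genes. No large effect shared by same-numbered libraries was seen. A small one could be hidden by noise, and the labels do not say whether these libraries were handled as pairs. A replicate block left 7, 7 and 6 of the genes called in the 3 comparisons, and changed the call of 0 of the 24 results.

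With 2 libraries per treatment the errors rest on variance shared between genes, and small changes depend on the scaling.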
